A study of Mus musculus with 8 samples.

Results

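The transcripts of 10 genes of the bone morphogenetic protein (BMP) pathway were examined in mouse aorta after infusion of angiotensin II (AngII), the pressor peptide of the renin-angiotensin system. They were chosen by symbol, with earlier results of these data known. They comprised the ligands Bmp2, Bmp4 and Bmp6, the receptors Bmpr1a and Bmpr2, and the BMP-responsive genes Id1, Id2, Id3, Smad6 and Smad7. All 10 were found among the 35896 genes of the count table and all 10 were among the 17182 genes tested. RNA from pieces of aorta was sequenced as 8 libraries, 2 per group, each made from the pooled tissue of 2 mice. In the AngII group, male C57BL6 mice received 2.8 mg/kg/day of AngII by osmotic minipump from 11 weeks of age and were sacrificed at the end of the 2 weeks of infusion. In AngII+2W and AngII+3W the same infusion was followed by 2 or 3 weeks without AngII, and the CTRL libraries came from untreated littermates of matched age, whose time of sacrifice the labels do not give. No transgene or knockout was used, and the 3 groups that received AngII were each compared with the same 2 CTRL libraries. The study describes control mice taken at every time point, but not which of them went into these 2 CTRL libraries. The match in age of these CTRL libraries to each of the 3 groups is therefore not known. The 3 groups also differed in age at sacrifice, so that age and time since the infusion cannot be told apart between them. Pooling removes the differences between the mice within a library, and p-values measure the spread between libraries.

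BMPs are secreted ligands of the TGF-β superfamily that bind heteromeric complexes of type 1 and type 2 serine/threonine kinase receptors. The activated type 1 receptor phosphorylates Smad1, Smad5 and Smad9, which join Smad4 and induce target genes such as Id1 to Id3, encoding inhibitors of basic helix-loop-helix transcription factors, and Smad6 and Smad7, encoding inhibitory Smads that feed back on the receptors. In the vessel wall the pathway acts in endothelial and smooth muscle cells, and mutations in human BMPR2 are a cause of heritable pulmonary arterial hypertension.

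At the end of the infusion the 10 transcripts were all lower than in CTRL in mean level, where 51% of all genes tested had a log2 fold change below 0. Id1, Smad6 and Smad7 were lower beyond the threshold, with means of between 0.503 and 0.562 of that in CTRL. Of 51 other genes of the pathway tested, 2 were called lower, the receptor Bmpr1b and the signal transducer Smad9. Another 2 were called higher, the secreted modulators Fst and Bmper. Of all genes tested, 2.2% were called lower and 2.9% higher. These calls depended on single libraries, as described below. At 2 and 3 weeks after the infusion the 10 mean levels were below CTRL. Log2 fold changes were below 0 for 50% and 46.4% of all genes tested. The differences were unequal in size, and the mean of Id2 in AngII+2W was 0.995 of that in CTRL. With edgeR's quasi-likelihood test none of these differences passed a false discovery rate (FDR, Benjamini-Hochberg adjusted p over all genes tested) of 0.05.

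The windows upstream of 3 of the genes that changed are printed so that the motif search can be read beside the transcript values. They comprise the 250 bases before the annotated start of Smad6, which fell, of Smad9, which fell, and of Bmper, which rose, read 5′ to 3′ on the strand of the gene (RefSeq, GRCm38.p6), and none of their bases lies in an annotated exon. Capitals mark GGCGCC, a GC-rich motif described for BMP-activated Smads.
Smad6, minus strand, chr9:64022060-64022309: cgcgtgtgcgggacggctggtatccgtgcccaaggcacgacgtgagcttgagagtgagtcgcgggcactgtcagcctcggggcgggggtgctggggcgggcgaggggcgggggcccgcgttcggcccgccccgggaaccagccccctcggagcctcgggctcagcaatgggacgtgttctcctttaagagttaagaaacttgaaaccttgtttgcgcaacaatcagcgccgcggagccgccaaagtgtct
Smad9, plus strand, chr3:54755332-54755581: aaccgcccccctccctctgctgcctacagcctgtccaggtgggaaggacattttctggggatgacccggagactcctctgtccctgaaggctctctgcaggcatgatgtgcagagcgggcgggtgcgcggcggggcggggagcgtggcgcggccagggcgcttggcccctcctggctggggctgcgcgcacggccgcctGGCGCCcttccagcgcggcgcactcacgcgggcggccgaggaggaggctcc
Bmper, plus strand, chr9:23222826-23223075: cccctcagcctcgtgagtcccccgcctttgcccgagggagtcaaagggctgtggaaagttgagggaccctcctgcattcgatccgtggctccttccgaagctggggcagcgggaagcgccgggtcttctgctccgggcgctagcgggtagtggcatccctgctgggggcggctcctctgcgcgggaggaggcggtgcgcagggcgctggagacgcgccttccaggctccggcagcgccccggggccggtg

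The Smad9 window held 1 GGCGCC, which reads the same on both strands and began 51 bases before the start. This motif was in 9.6% of 32851 windows of the same length. Neither GGCGCC nor CAGAC, the Smad-binding element searched on both strands and present in 42.2% of the windows, was found in the windows of Smad6 and Bmper. The genes of these 3 windows were called and the windows were free of exons, which does not single them out. Of the 7 windows of the 10 genes, 3 held GGCGCC, those of Bmpr1a, Bmpr2 and Id2, and 2 held CAGAC, those of Bmp6 and Id3, while that of Bmp4, like that of Smad6, held neither. The windows of Bmp6, Bmpr2 and Id3 lay wholly within annotated exons, and those of Bmpr1a and Id2 held 141 and 161 exonic bases. The 7 windows were 62.8% to 78.8% G or C, and the share of each motif among windows of like composition was not computed. Bmpr1b, which was called and also fell, had 3 windows for its annotated starts, not printed here, of which 2 held CAGAC and 0 held GGCGCC. The 2 windows of Bmpr1b with CAGAC were free of exons as well. A match is a string of letters and not a shown binding site, and an absent match says nothing of binding outside the window. The window table held 7 of the 10 genes, without Bmp2, Id1 and Smad7, and 3 of the 4 other genes described here, without Fst.

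The depth of the libraries was even, with totals of between 18130441 and 21498200 counts, so that 3 counts corresponded to between 0.140 and 0.162 CPM (counts per 1000000 counts of the TMM-normalized library size). The 10 genes had between 32 counts (Bmp2) and 6581 counts (Bmpr2) in a library. Cell type markers differed between the libraries. The summed level of 7 smooth muscle markers was 7720 to 9789 CPM in CTRL and 1802 to 2250 CPM in AngII, with 3717 to 4109 CPM for AngII+2W and 1781 to 3434 CPM for AngII+3W, and 6 of the 7 were lower in AngII beyond the threshold. The 10 endothelial markers, which included Pecam1 and Cdh5, summed to 1101 to 1294 CPM in CTRL and 1291 to 1375 CPM in AngII. The 8 macrophage markers summed to 294 to 386 CPM in CTRL and 759 to 1249 CPM in AngII, where 5 of the 8 were higher beyond the threshold. The 7 fibroblast markers summed to 684 to 1164 CPM in CTRL and 2091 to 2980 CPM in AngII, where 1 of the 7 was higher. The 8 cardiac muscle markers ranged from 85.1 CPM in an AngII+2W library to 6374 CPM in AngII+3W replicate 1, and this library also held 2637 CPM of 8 skeletal muscle markers against at most 74.3 CPM elsewhere. None of the smooth muscle or endothelial markers was at 0 in any library. In bulk tissue, fewer cells of a type and less RNA per cell cannot be told apart, and the part of cell composition in the differences described here was not tested.

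Per length, the order of the mean levels in CTRL was led by Id1 at 47.9 ± 6.59 CPM per kb of exon (SD, n = 2), followed by Id3 at 34.4 ± 3.102 and Bmpr1a at 27.0 ± 11.2. Then came Id2 at 17.7 ± 2.06, Bmpr2 at 15.3 ± 3.52, Smad7 at 14.04 ± 2.09, Bmp6 at 13.0 ± 0.425 and Smad6 at 11.6 ± 1.79 CPM per kb. The ligands Bmp4, at 5.90 ± 2.16, and Bmp2, at 1.53 ± 0.704 CPM per kb, were the lowest. Neighbours from Id3 to Smad6 in this order differed by less than the larger of their SDs, so that their order is not settled. The gaps between Id1 and Id3, between Smad6 and Bmp4 and between Bmp4 and Bmp2 were wider than either SD. These lengths are sums of all annotated exonic bases and ignore which isoform was made.

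**Figure D1:**
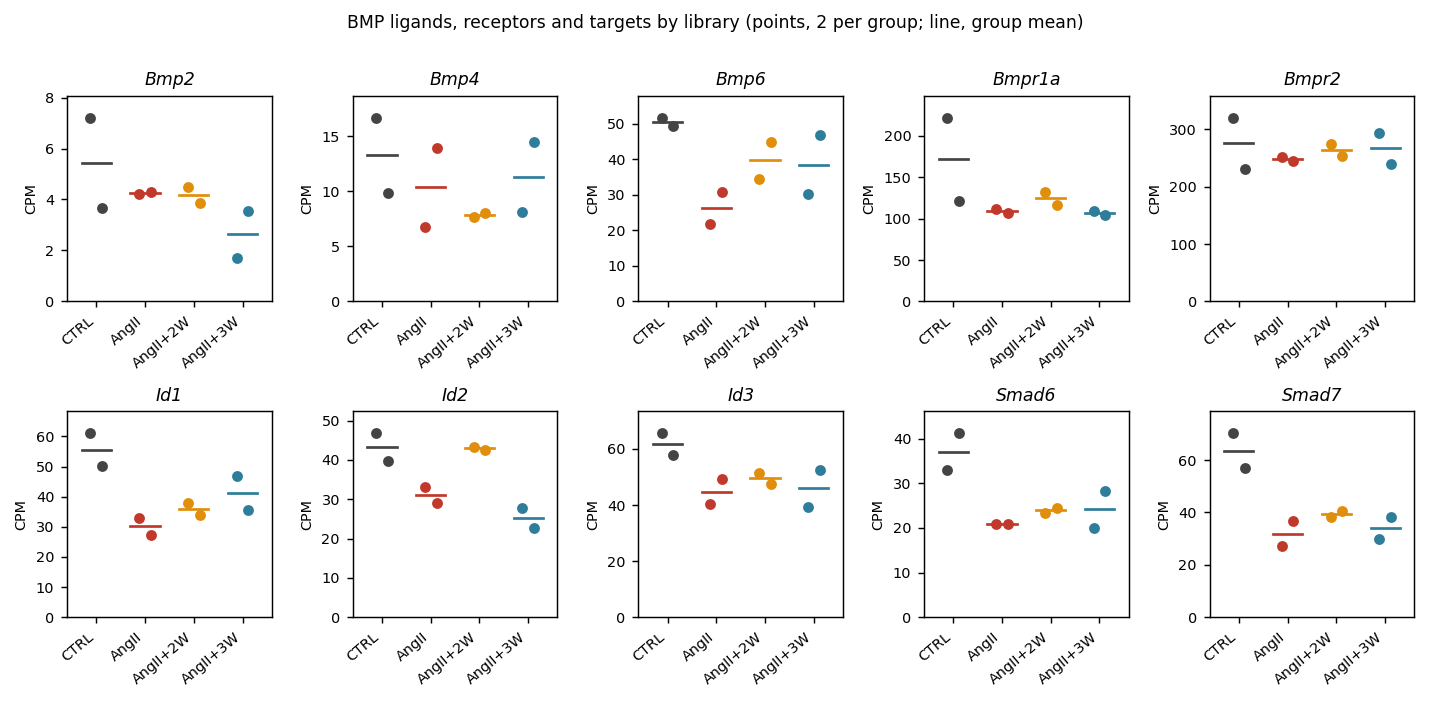
Level of each of the 10 BMP genes in the 8 libraries (points, CPM on a linear axis from 0) by group, with the line at the mean of the 2 libraries. All 6 libraries that had received AngII lie below both CTRL libraries for Bmp6, Id1, Id3, Smad6 and Smad7, while Id2 in AngII+2W lies within the CTRL range.

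Among the ligands, Bmp6 had the clearest difference. Bmp6, on the plus strand of chromosome 13 (GRCm38, 38345107 to 38500302), encodes a ligand made by endothelial and other cells that also controls iron balance in the liver. It was at 51.7 and 49.3 CPM in CTRL and at 21.7 and 30.8 CPM in AngII, with 34.5 and 44.8 CPM for AngII+2W and 30.2 and 46.7 CPM for AngII+3W. Both AngII libraries were below every other library of the series except AngII+3W replicate 1, which was at 30.2 CPM, and all 6 libraries of the AngII groups were below both CTRL libraries. The log2 fold change in AngII against CTRL was -0.95 (standard error 0.250, 95% interval -1.53 to -0.36), which did not pass the threshold (edgeR's quasi-likelihood test, FDR = 0.0763). The call depended on the test, since DESeq2 gave FDR = 0.00895 and edgeR's likelihood ratio test gave FDR = 0.0118. Bmp6 shares 224 exonic bases with Txndc5 on the opposite strand, a gene with up to 2715 counts in a library, and the strand setting of the counting is not given in the sources used here, so that its level is uncertain to that extent.

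Bmp2, on the plus strand of chromosome 2 (133552159 to 133562885), encodes a ligand known for bone formation and vascular calcification. It was the weakest of the 10 transcripts, at 7.21 and 3.67 CPM in CTRL and at 4.21 and 4.31 CPM in AngII, with 4.48 and 3.87 CPM for AngII+2W and 1.72 and 3.55 CPM for AngII+3W. The CTRL libraries differed from each other by more than the group means did, and only AngII+3W lay below both of them. In that group the log2 fold change was -1.04 (standard error 0.412, 95% interval -2.0 to -0.088) with edgeR's FDR = 0.353.

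Bmp4, on the minus strand of chromosome 14 (46383520 to 46390669), encodes a ligand that endothelial cells release under disturbed flow. Its levels were 16.7 and 9.83 CPM in CTRL and at 6.80 and 13.98 CPM in AngII, with 7.70 and 8.0 CPM for AngII+2W and 8.12 and 14.5 CPM for AngII+3W. The groups overlapped except for AngII+2W, where both libraries were below both CTRL libraries. The 95% intervals of the log2 fold change against CTRL ran from -1.30 to 0.60 in AngII, -1.72 to 0.21 in AngII+2W and -1.19 to 0.72 in AngII+3W, so that more than 2-fold differences in the downward direction could not be told from none at this replication.

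Of the receptors, Bmpr2, on the plus strand of chromosome 1 (59763400 to 59879014), encodes the type 2 receptor of the pathway and was the most abundant transcript in CPM. It was at 321 and 231 CPM in CTRL and at 252 and 245 CPM in AngII, with 275 and 253 CPM for AngII+2W and 295 and 240 CPM for AngII+3W. Every library of the AngII groups lay between the 2 CTRL libraries. The 95% intervals of the log2 fold change against CTRL were -0.59 to 0.28 in AngII, -0.50 to 0.37 in AngII+2W and -0.48 to 0.39 in AngII+3W. The sign of these differences changed, to 0.025, 0.43 and 0.068, when the level of the cardiac muscle markers was added to the model, an alternative chosen after the data were seen. In AngII+2W, whose libraries had the lowest levels of these markers, this covariate and the group are hard to tell apart.

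Bmpr1a, on the minus strand of chromosome 14 (34410734 to 34503341), encodes the type 1 receptor also named ALK3. It was at 222 and 121 CPM in CTRL and at 111 and 107 CPM in AngII, with 133 and 117 CPM for AngII+2W and 109 and 105 CPM for AngII+3W. CTRL replicate 1 stood apart from the other 7 libraries, which spanned 105 to 133 CPM. The cardiac muscle markers were at 5599 CPM in that library against 2487 CPM in CTRL replicate 2. They were highest in AngII+3W replicate 1, at 6374 CPM, where Bmpr1a was at 109 CPM. The part of cardiac muscle in the level of Bmpr1a was not tested. In AngII the log2 fold change was -0.65 (standard error 0.253, edgeR's FDR = 0.201), and it was -0.15 without CTRL replicate 1.

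The Id genes and the inhibitory Smads held the 3 differences past the threshold. Smad7, on the plus strand of chromosome 18 (75367529 to 75395935), encodes an inhibitory Smad that acts on both TGF-β and BMP receptors. It was at 70.2 and 56.8 CPM in CTRL and at 27.2 and 36.6 CPM in AngII, with 38.3 and 40.5 CPM for AngII+2W and 29.8 and 38.4 CPM for AngII+3W. The 6 libraries of the AngII groups were all below both CTRL libraries, and AngII replicate 1 was the lowest. In AngII it differed by -0.99 on the log2 scale (standard error 0.194, 95% interval -1.44 to -0.54), with FDR = 0.0334 in edgeR's quasi-likelihood test and 0.0621 with library totals in place of TMM. It was -0.69 (standard error 0.192, FDR = 0.301) in AngII+2W and -0.90 (standard error 0.193, FDR = 0.110) in AngII+3W.

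Smad6, on the minus strand of chromosome 9 (63953076 to 64022059), encodes the inhibitory Smad that preferentially blocks BMP receptors. It was at 33.0 and 41.2 CPM in CTRL and at 20.8 and 20.9 CPM in AngII, with 23.4 and 24.4 CPM for AngII+2W and 20.0 and 28.3 CPM for AngII+3W. Again all 6 libraries of the AngII groups were below both CTRL libraries. Its log2 fold change in AngII was -0.83 (standard error 0.187, 95% interval -1.27 to -0.40), with FDR = 0.0479 in edgeR's quasi-likelihood test, close to the threshold. With DESeq2's size factors the FDR was 0.0526, with limma-voom 0.0506 and with library totals 0.0965. In the later groups the log2 fold changes were -0.63 (FDR = 0.305) and -0.62 (FDR = 0.229).

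Id1, on the plus strand of chromosome 2 (152736251 to 152737410), is a widely used readout of BMP-activated Smads. It was at 61.0 and 50.2 CPM in CTRL and at 33.0 and 27.3 CPM in AngII, with 38.0 and 33.9 CPM for AngII+2W and 47.0 and 35.6 CPM for AngII+3W. Both AngII libraries were below all 6 other libraries, and the 4 libraries taken after the infusion were between AngII and CTRL. Against CTRL its log2 fold change was -0.88 (standard error 0.181, 95% interval -1.30 to -0.46) in AngII, with FDR = 0.0375 in edgeR's quasi-likelihood test. It was -0.63 (standard error 0.180, FDR = 0.303) in AngII+2W and -0.43 (standard error 0.180, FDR = 0.384) in AngII+3W. With the level of the cardiac muscle markers in the model, an alternative chosen after the data were seen, the value in AngII+2W was -0.039. The AngII+2W libraries had the lowest levels of these markers, at 254 and 85.1 CPM, and the next lowest library was at 492 CPM. The covariate and this group are therefore hard to tell apart, and the adjusted value is uncertain. The direct comparison of AngII+3W with AngII gave 0.45 (standard error 0.181, unadjusted p = 0.0373, edgeR's FDR = 0.247).

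Id3, on the plus strand of chromosome 4 (136143497 to 136145755), encodes a related inhibitor that is expressed in vascular cells. It was at 65.5 and 57.7 CPM in CTRL and at 40.2 and 49.2 CPM in AngII, with 51.5 and 47.5 CPM for AngII+2W and 39.3 and 52.6 CPM for AngII+3W. All 6 libraries of the AngII groups were again below both CTRL libraries. The differences were smaller than for Id1, with log2 fold changes of -0.46 (standard error 0.173, FDR = 0.185), -0.32 (standard error 0.172, FDR = 0.577) and -0.42 (standard error 0.173, FDR = 0.371) in the 3 groups.

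Id2, on the minus strand of chromosome 12 (25093799 to 25097140), which encodes an inhibitor that other pathways also induce, had another time course. It was at 46.7 and 39.6 CPM in CTRL and at 33.0 and 29.0 CPM in AngII, with 43.3 and 42.6 CPM for AngII+2W and 27.8 and 22.7 CPM for AngII+3W. Its AngII+2W libraries were within the CTRL range, while AngII and AngII+3W were below it and did not overlap with AngII+2W. In AngII+3W the log2 fold change against CTRL was -0.77 (standard error 0.149, 95% interval -1.12 to -0.43, FDR = 0.0868). AngII+3W differed from AngII+2W by -0.77 (standard error 0.149, unadjusted p = 0.000999), which did not pass adjustment in edgeR's quasi-likelihood test (FDR = 0.297). DESeq2 gave FDR = 0.00346 for the former difference and 0.0105 for the latter.

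**Figure D2:**
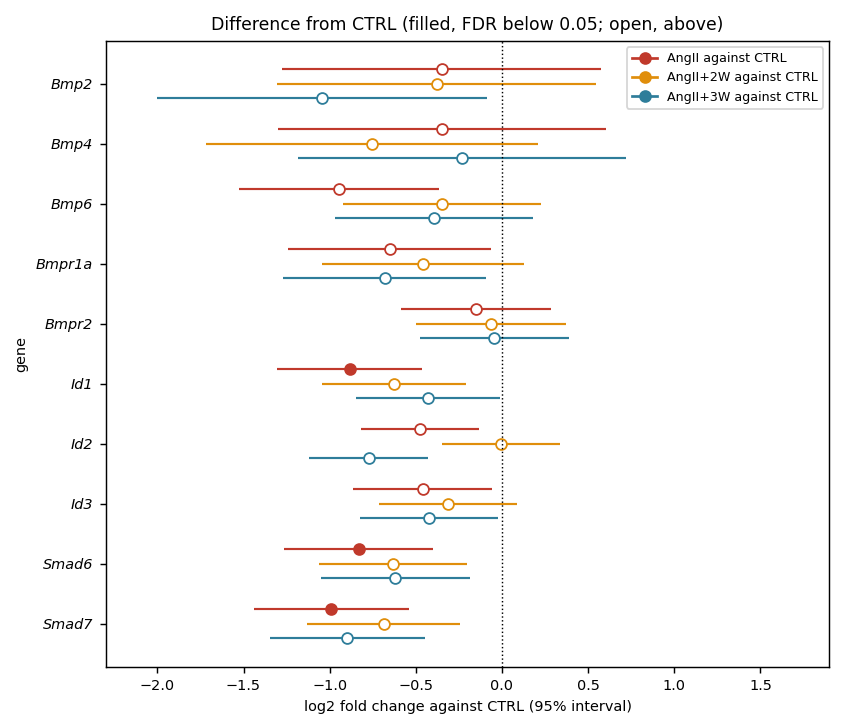
Log2 fold change of each of the 10 BMP genes in AngII, AngII+2W and AngII+3W against CTRL (points) with the 95% interval from edgeR's quasi-likelihood fit (lines); filled points have an FDR below 0.05 and the dotted line marks no difference. All points are below 0, and the 3 filled points are Id1, Smad6 and Smad7 in AngII; the 3 comparisons share the CTRL libraries.

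As a group, 3 of the 10 genes were lower in AngII at an FDR below 0.05, where 2.2% of all genes tested were called lower (378 of 17182), and 0 were higher (background 2.9%). Without adjustment, 7 of the 10 were lower at p below 0.05 (background 9.29%) and 0 were higher (background 10.9%), and the log2 fold change of all 10 was below 0 (background 51%). Both AngII libraries were below both CTRL libraries for 7 of 10 genes, with a background of 24.9%. The median log2 fold change of the 10 genes was -0.56 in AngII, while that of all genes tested was -0.01. The 10 genes and the lists below were chosen with earlier results of these data known. Counts set beside a background, here and below, are therefore descriptions and not tests.

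The call of all 3 genes was lost when CTRL replicate 1, AngII replicate 1, AngII replicate 2, AngII+2W replicate 1 or AngII+2W replicate 2 was left out, which left 0 of the 10 genes past the threshold in edgeR's quasi-likelihood test and between 4 and 6 at an unadjusted p below 0.05. It was lost without CTRL replicate 2 as well, where Bmpr1a was called instead (FDR = 0.0269). Leaving out either AngII+3W library gave 4 calls. Over the 8 such fits the log2 fold change in AngII ranged from -1.03 to -0.74 for Id1, -0.98 to -0.67 for Smad6 and -1.22 to -0.79 for Smad7. The number of genes called among all genes moved too, from 877 with all libraries to between 0 and 1504.

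In AngII+2W, 0 of the 10 genes passed an FDR of 0.05 with edgeR's quasi-likelihood test, where the background was 0%. The count was also 0 with DESeq2, the likelihood ratio test and limma-voom, which called 373, 420 and 0 of all genes tested. Without adjustment, Id1, Smad6 and Smad7 were lower at p below 0.05, which is 3 of 10 where the background was 6.18%. All 10 log2 fold changes were below 0 (background 50%). Both libraries were below both CTRL libraries for 6 of 10 genes (background 22.2%), and the median log2 fold change was -0.42 against 0.00 for all genes.

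In AngII+3W, 0 of the 10 genes passed with edgeR's quasi-likelihood test, where the background was 0.268% lower and 0.0175% higher. DESeq2 and the likelihood ratio test each called 2, Id2 and Smad7, and limma-voom 0. Over all genes tested they called 585, 556 and 44. Without adjustment, 7 of the 10 were lower at p below 0.05 (background 7.18%) and 0 were higher (background 5.34%), and all 10 log2 fold changes were below 0 (background 46.4%). Both libraries were below both CTRL libraries for 8 of 10 genes (background 18.3%), and the median log2 fold change was -0.52 against 0.03 for all genes. With only the 2 groups compared, 3 of the 10 genes were lower at an unadjusted p below 0.05 in edgeR's quasi-likelihood test. The median was -0.51 without AngII+3W replicate 1 and -0.34 without CTRL replicate 1. AngII+3W replicate 1, the library with the skeletal muscle markers, was below replicate 2 for 6 of the genes, among them Bmp6 and Smad6.

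Over the whole series, 5 of the 10 genes had all 6 libraries of the AngII groups below both CTRL libraries, with a background of 7.04% of genes tested. The log2 fold change was below 0 in all 3 comparisons for 10 of 10 genes, with a background of 25.6%. As the 3 comparisons share 2 CTRL libraries, a high CTRL library lowers all 3 differences at once. Without CTRL replicate 1, the numbers below 0 were 7 of 10 in AngII, 6 of 10 in AngII+2W and 8 of 10 in AngII+3W.

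Between the AngII groups, 0 of the 10 genes differed at an FDR below 0.05 in edgeR's quasi-likelihood test, in AngII+2W against AngII (background 0.163% in either direction), AngII+3W against AngII (1.61%) or AngII+3W against AngII+2W (0%). Without adjustment, 2 genes were higher in AngII+2W than in AngII at p below 0.05 (background 6.57%), Id2 by 0.47 and Bmp6 by 0.60 on the log2 scale. In AngII+3W, Id1 was higher than in AngII (background 7.41%) and Id2 lower than in AngII+2W (background 4.22%), with the values given above. DESeq2 and the likelihood ratio test each called 1 gene, Id2 in AngII+3W against AngII+2W, and none in the other 2 comparisons, and limma-voom called none in the 3. Over all genes tested, DESeq2 called 221 in AngII+3W against AngII+2W, the likelihood ratio test 273 and limma-voom 0. In AngII+2W against AngII they called 685, 766 and 15, and in AngII+3W against AngII 968, 1068 and 287. A fall during the infusion that had been reversed by 2 or 3 weeks was therefore not shown for any of the 10 genes, and persistence at an unaltered level was not shown either, since the 95% interval of the difference between AngII+3W and AngII ran from -0.36 to 0.54 for Smad7 and from -0.22 to 0.65 for Smad6.

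The levels of the genes were correlated with each other to different degrees over the 8 libraries. Pearson's r of log2 CPM was above 0 in 43 of the 45 pairs, with a median of 0.52, and was highest for Id3 and Smad7 at 0.95. Smad6 and Smad7 had r = 0.86, Bmp6 and Smad7 had r = 0.85, and Bmp6 and Id1 had r = 0.52. The pairs share the libraries, the groups and the same 2 CTRL pools, so that these values describe 8 points and are not tests. All of these genes also had their highest mean level in CTRL. The same count and median were not computed for pairs of other genes. Whether these genes were more alike than genes at large was therefore not tested. The 5 genes with the pattern most like that of Bmp6 were Arl3 (r = 0.99), Adam33 (0.99), Lrch1 (0.98), Lrch3 (0.97) and Taf3 (0.97), and for Id1 they were Dsp (0.99), Cap2 (0.99), Rprd1b (0.98), Pcp4l1 (0.98) and Sh3bgr (0.98), over 8 libraries.

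To place these transcripts within the pathway, 57 further genes in 5 lists were read in the same fit, of which 51 were tested. In AngII, 2 of the 51 were higher and 2 lower at an FDR below 0.05, where 2.9% of all genes were called higher and 2.2% lower, and without adjustment 7 were higher and 9 lower at p below 0.05 (backgrounds 10.9% and 9.29%). In edgeR's quasi-likelihood test 0 of the 8 tested other ligands and 0 of the 9 tested other targets passed. Without adjustment, 2 of the ligands were lower at p below 0.05, and 2 of the targets were higher and 1 lower. DESeq2 called 1 of the ligands, Bmp3, and 2 of the targets, Atoh8 and Runx2, the likelihood ratio test called 0 and 2, and limma-voom 0 and 1. Over all genes tested they called 1588, 1711 and 840. The 11 tested receptors and co-receptors had 1 lower, the 9 other Smads and regulators had 1 lower, and the 14 tested extracellular antagonists and modulators had 2 higher. The median log2 fold change in AngII was -0.43 for the other ligands, -0.02 for the receptors, -0.05 for the Smads, 0.21 for the antagonists and -0.26 for the other targets. The lists therefore did not move one way, and the members that passed came from 3 of the 5. In AngII+2W and AngII+3W, 0 of the 51 passed with edgeR's quasi-likelihood test, which called 0% of all genes in the former and 0.268% lower and 0.0175% higher in the latter. Without adjustment, 3 were higher and 8 lower in AngII+2W at p below 0.05 (backgrounds 4.52% and 6.18%), and 2 were higher and 10 lower in AngII+3W (backgrounds 5.34% and 7.18%). DESeq2 called 1 and 5 of the 51, where it called 373 and 585 of all genes. The likelihood ratio test called 2 and 4, of 420 and 556 in all, and limma-voom 0 and 0, of 0 and 44 in all.

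**Figure D3:**
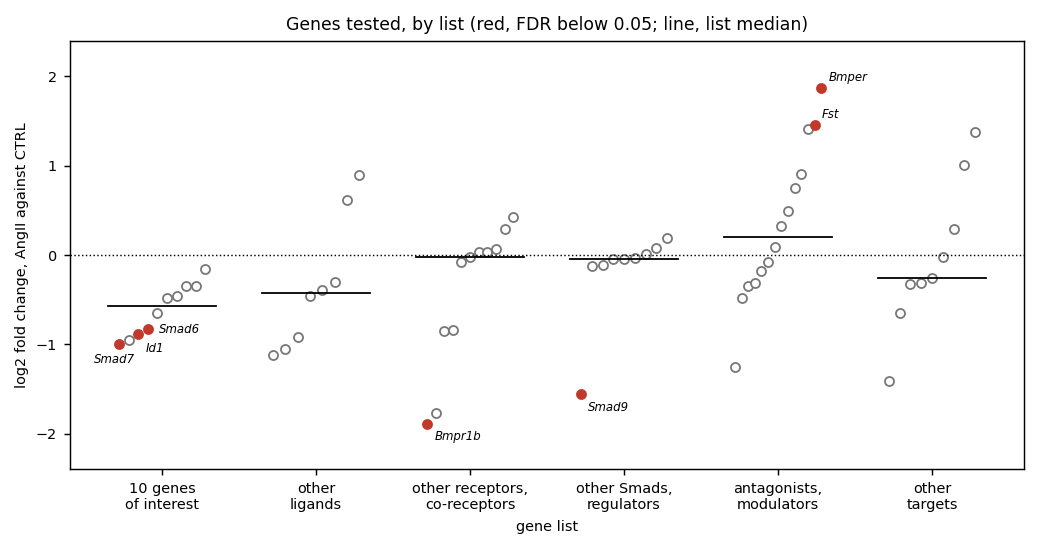
Log2 fold change in AngII against CTRL of the 10 BMP genes and of the 51 other pathway genes tested, by list (each point is 1 gene, the line is the list median); red points, with names, have an FDR below 0.05. The 10 genes lie between -0.99 and -0.15, whereas each of the other lists holds genes on both sides of 0.

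Bmpr1b, on the minus strand of chromosome 3 (141837136 to 142169425), encodes the type 1 receptor also named ALK6. It was at 26.3 and 14.4 CPM in CTRL and at 5.18 and 5.78 CPM in AngII, with 11.0 and 11.5 CPM for AngII+2W and 4.78 and 8.54 CPM for AngII+3W. All 6 libraries of the AngII groups were below both CTRL libraries. In AngII the log2 fold change was -1.89 (standard error 0.347), with FDR = 0.0269 in edgeR's quasi-likelihood test.

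Smad9, on the plus strand of chromosome 3 (54755582 to 54801257), encodes a receptor-regulated Smad of the BMP branch, and its upstream window is printed above. It was at 15.7 and 11.7 CPM in CTRL and at 4.16 and 5.12 CPM in AngII, with 8.26 and 7.46 CPM for AngII+2W and 5.48 and 7.47 CPM for AngII+3W. All 6 libraries of the AngII groups were below both CTRL libraries here too. In AngII it differed by -1.56 on the log2 scale (standard error 0.239, edgeR's FDR = 0.0170).

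Fst, on the minus strand of chromosome 13 (114452290 to 114458951), encodes follistatin, which binds activins and, more weakly, BMPs. It was at 13.7 and 14.6 CPM in CTRL and at 45.2 and 32.5 CPM in AngII, with 28.8 and 30.3 CPM for AngII+2W and 17.4 and 26.1 CPM for AngII+3W. The 6 libraries of the AngII groups were all above both CTRL libraries. Its log2 fold change in AngII was 1.46 (standard error 0.229), with edgeR's FDR = 0.0175, and it was 1.06 (FDR = 0.215) in AngII+2W and 0.62 (FDR = 0.321) in AngII+3W. Fst shares 115 exonic bases with an antisense gene, Gm47040, which is not in the count table.

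Bmper, on the plus strand of chromosome 9 (23223076 to 23485200), encodes a secreted BMP-binding modulator of endothelial cells. It was at 11.5 and 13.6 CPM in CTRL and at 40.5 and 51.6 CPM in AngII, with 20.8 and 15.0 CPM for AngII+2W and 11.2 and 16.7 CPM for AngII+3W. AngII stood above all other libraries, and AngII+3W overlapped with CTRL. Against CTRL, Bmper differed by 1.87 on the log2 scale in AngII (standard error 0.251, edgeR's FDR = 0.0121) and by 0.15 in AngII+3W (standard error 0.249, FDR = 0.852). The direct comparison of AngII+3W with AngII gave -1.72 (standard error 0.250, FDR = 0.0273). Among the 10 genes and the 51 others, Bmper was the only one with a difference between AngII groups that passed the threshold in edgeR's quasi-likelihood test. DESeq2 and the likelihood ratio test also called Id2 in AngII+3W against AngII+2W (FDR = 0.0105 and 0.0156) and Fst in AngII+3W against AngII (FDR = 0.0212 and 0.0301). Outside the 10 genes, these tools were read between AngII groups only for Bmpr1b, Smad9, Fst, Bmper and Atoh8, in AngII+3W against AngII. With edgeR's quasi-likelihood test the receptor Acvr2b was higher by 1.48 on the log2 scale in AngII+2W than in AngII (FDR = 0.0674). In AngII+3W it was higher than in AngII by 1.31 (edgeR's FDR = 0.0565), so that both missed the threshold.

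The calls of these 4 genes in AngII also depended on single libraries. Without CTRL replicate 1 or without AngII replicate 2, 0 of the 51 genes were called by edgeR's quasi-likelihood test, without AngII replicate 1 there was 1, without CTRL replicate 2 or either AngII+2W library there were 2, and without either AngII+3W library there were 7. Leaving out 1 library kept the sign of the log2 fold change in AngII for all 4, and the FDR of the calls that were lost lay between 0.0543 and 0.180.

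Atoh8, a BMP target that encodes a basic helix-loop-helix transcription factor, lay outside the rule for named genes and was chosen after its values were seen. It was at 23.1 and 27.1 CPM in CTRL and at 7.78 and 11.1 CPM in AngII, with 16.1 and 14.6 CPM for AngII+2W and 6.61 and 14.1 CPM for AngII+3W. Its 6 libraries of the AngII groups were below both CTRL libraries. In AngII the log2 fold change was -1.41 (standard error 0.335), which missed the threshold in edgeR's quasi-likelihood test (FDR = 0.0570). It passed with DESeq2 (FDR = 0.00123), the likelihood ratio test (0.00276) and limma-voom (0.0458). Runx2, the other target that DESeq2 and the likelihood ratio test called, went the other way. Its levels were 3.51 and 2.59 CPM in CTRL and 6.10 and 9.71 CPM in AngII. Of the 9 tested other targets, 6 had a log2 fold change below 0 in AngII (background 51%).

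**Figure D4:**
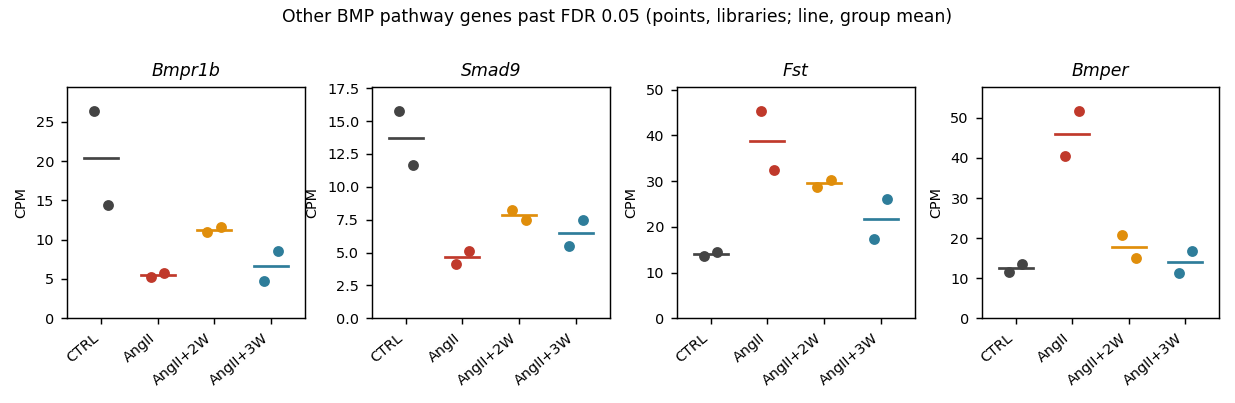
Level of Bmpr1b, Smad9, Fst and Bmper in the 8 libraries (points, CPM on a linear axis from 0) by group, with the line at the mean of the 2 libraries. Bmpr1b and Smad9 are lower and Fst is higher than both CTRL libraries in all 6 libraries of the AngII groups, and Bmper is high in the 2 AngII libraries at 40.5 and 51.6 CPM.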

How the data were processed

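RNA-sequencing of aorta was analysed in the 8 libraries of the series, grouped by their labels. The authors depleted ribosomal RNA, estimated transcript abundances with Salmon against Ensembl cDNA (GRCm38.p6) in the ARMOR workflow and summed them for each gene with tximeta. The deposited table holds these expected counts, estimated per gene, as whole numbers without normalization. Transcript lengths are not part of it, so that no length offset was applied, and the strand setting is not given in the sources used here. Of 35896 genes, 11469 had no count in any library.

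Tests used edgeR 4.0.16 under R 4.3.3 (filterByExpr, TMM, quasi-likelihood F test in its older form, 1 coefficient per group, 4 residual degrees of freedom). P-values are two-sided and adjusted by Benjamini-Hochberg over 17182 genes, with a threshold of 0.05, in 6 comparisons. Intervals are 95% intervals of the model. Alternatives used DESeq2 1.42.0, limma 3.58.1 (limma-voom), the likelihood ratio and newer quasi-likelihood tests, other size factors and filters, the 2 groups compared alone, a replicate block and leaving out each library. A covariate for cardiac muscle markers was added after the data were seen. The code was tested on simulated data.

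The genes and lists were chosen with earlier results of these data known. Of the lists, genes with an FDR below 0.05 in any comparison are named, with the 5 genes most like Bmp6 and Id1. Positions are from GENCODE on GRCm38, which held 35437 of the identifiers (98.7%). Lymphocyte, adipocyte, brown adipocyte and Schwann cell markers were also read, and their summed levels were 7.45 to 14.01, 2790 to 4302, 1137 to 2732 and 54.0 to 134.6 CPM over the 8 libraries.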

Additional observations from a re-analysis of the deposited data

Results flagged for a closer look

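Bmper, the secreted BMP-binding modulator, was singled out because its effect differed between groups that had received AngII. Its log2 fold change in AngII+3W against AngII was -1.72 (edgeR's quasi-likelihood test, Benjamini-Hochberg FDR = 0.0273), and both AngII+3W libraries, at 11.2 and 16.7 CPM, were below both AngII libraries, at 40.5 and 51.6 CPM. The FDR was 0.0602 or higher without either CTRL library, 0.0586 without AngII replicate 1, 0.214 without AngII replicate 2, 0.0650 or higher without either AngII+2W library and 0.0772 without AngII+3W replicate 1. It was 0.129 with the 2 groups alone. The macrophage markers (759 to 1249 CPM in AngII, 265 to 431 CPM in AngII+3W) and the fibroblast markers (2091 to 2980 CPM in AngII, 736 to 1599 CPM in AngII+3W) moved in the same direction, and their part in the difference was not tested. Groups of 2 libraries were not searched for single libraries far from the others.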

How the results depend on the processing

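Of 1140 values of the 10 genes under alternatives, 51 changed sign, 34 of them with a library left out, and 0 of these had an FDR below 0.05 (quasi-likelihood test and the alternatives). No alternative changed the sign of Bmp6, Id1, Id3, Smad6 or Smad7 against CTRL. In AngII+2W against CTRL, sizes moved with the cardiac muscle covariate, which was chosen after the data were seen. They moved to -0.039 for Id1 (from -0.63), -0.039 for Bmpr1a (from -0.46), -1.19 for Bmp6 (from -0.35), -1.22 for Smad6 (from -0.63), -1.05 for Smad7 (from -0.69), -0.66 for Id3 (from -0.32) and -1.53 for Bmp4 (from -0.76). The AngII+2W libraries had the lowest levels of these markers, so that covariate and group are hard to tell apart there and these values are uncertain. For AngII against CTRL, library totals gave 1 of the 10 genes in place of 3, and leaving out a library gave 0 to 4. The other pathway genes numbered 7 with every gene of at least 1 count or with the 2 groups alone, 9 with DESeq2 or the likelihood ratio test, and 0 to 7 with a library left out, in place of 4. In AngII+2W they numbered 1 with DESeq2, 2 with the likelihood ratio test and 0 to 2 with a library left out, in place of 0. In AngII+3W, DESeq2, the likelihood ratio test and fits without a library gave 2, 2 and 0 to 2 of the 10 genes in place of 0. The other pathway genes there numbered 1 with at least 1 count, 1 with at least 10 counts in every library, 5 with DESeq2, 4 with the likelihood ratio test, 2 with the cardiac muscle covariate and 0 to 5 with a library left out. In AngII+3W against AngII+2W, DESeq2 and the likelihood ratio test gave 1. All genes called in AngII numbered 1588 with DESeq2 and 1711 with the likelihood ratio test in place of 877. The cause of these changes was not tested.

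With library totals the log2 fold change turned to 0.011 for Id2 in AngII+2W against CTRL, -0.014 for Id3 in AngII+3W against AngII, and -0.031 for Bmpr2 and -0.019 for Smad6 in AngII+3W against AngII+2W. For the last, limma-voom gave -0.0065. With the cardiac muscle covariate it turned for Bmpr2 against CTRL to 0.025 in AngII, to 0.43 in AngII+2W and to 0.068 in AngII+3W, and to 0.39 for Id2 in AngII+2W. It turned to -0.073 for Id3 and -0.19 for Smad6 in AngII+2W against AngII, and in AngII+3W against AngII+2W to 0.56 for Bmp6, -0.36 for Bmpr2, -0.26 for Id1, 0.14 for Id3 and 0.056 for Smad7. With the replicate block Smad6 turned to -0.0021 in that comparison, 4 of the 10 genes were called in AngII, where Bmp6 had FDR = 0.0344, and the other pathway genes numbered 6. The labels give groups the same replicate numbers but no shared origin, and replicate differences correlated between groups at -0.01 to 0.33 over 15159 genes, so that the numbers were not taken as pairs.

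With 1 library left out, log2 fold changes that turned ranged as follows. In AngII against CTRL they ranged from -0.77 to 0.22 for Bmp2, -0.96 to 0.081 for Bmp4 and -0.38 to 0.10 for Bmpr2. In AngII+2W against CTRL they ranged from -0.79 to 0.20 for Bmp2, -0.83 to 0.053 for Bmpr1a, -0.28 to 0.20 for Bmpr2 and -0.12 to 0.13 for Id2, and in AngII+3W against CTRL from -0.76 to 0.20 for Bmp4 and -0.28 to 0.20 for Bmpr2. In AngII+2W against AngII they ranged from -0.0012 to 0.30 for Id3, -0.84 to 0.21 for Bmp4 and -0.14 to 0.072 for Bmp2. In AngII+3W against AngII they ranged from -0.41 to 0.73 for Bmp4, -0.23 to 0.24 for Id3, -0.15 to 0.32 for Smad7, -0.039 to 0.20 for Bmpr2 and -0.10 to 0.45 for Smad6. In AngII+3W against AngII+2W they ranged from -0.14 to 0.11 for Bmpr2, -0.30 to 0.24 for Smad6, -0.44 to 0.23 for Bmp6, -0.017 to 0.34 for Id1 and -0.38 to 0.087 for Id3. A lone library left in a group was assumed to vary like the other groups. Each group had 2 libraries, and the parts of replication and of depth in the uncertainty were not separated. The lowest counts in a library were 32 for Bmp2 and 126 for Bmp4.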
